A study of Rattus norvegicus with 7 samples.

Results

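*Thrsp* (ENSRNOG00000012404) and *Scd* (ENSRNOG00000013552) are a pair of genes of fat synthesis, 2 of the 32754 genes counted in RNA from rat adrenal glands. They were chosen on their own read counts, which were known to be higher in both stressed groups of this series than in control, so their own differences are given as descriptions, with no test. Both passed the filter of at least 10 counts in all 7 libraries, as did 13892 genes. The libraries came from male Sprague-Dawley rats in 3 groups: control (n = 3 libraries), chronic variable stress (CVS, n = 2) and chronic shock (CS, n = 2). The protocols typically ran from postnatal day 28 to 49, and the animals were euthanized on day 50 to 51. Control rats were housed in groups and handled only for daily weighing. CVS rats met physical, psychological and social stressors that changed from day to day. Among them were restraint, swimming, cold, a predator, food and water deprivation and changes of the light cycle. Short sessions of foot shock and spells of isolation were also among these stressors. CS rats were housed singly on the metal grid of the shock apparatus, in another room than the other groups. They received foot shocks that were random in time and strength, so that shock, grid floor, single housing and room cannot be told apart. Each library was a pool of RNA from several animals, and the spread between libraries is one between pools. Where the text below gives a standard deviation with n = 2, it rests on a pair of pools.

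*Thrsp*, also called Spot 14, encodes a small protein of lipogenic tissues that promotes the expression or activity of fatty acid synthesis enzymes, and its gene is a textbook target of thyroid hormone and of carbohydrate feeding in liver and fat. *Scd* encodes stearoyl-CoA desaturase, the enzyme of the endoplasmic reticulum that puts a double bond into saturated fatty acids made by fatty acid synthase, and so provides the monounsaturated chains of triglycerides, phospholipids and cholesterol esters. The adrenal cortex stores cholesterol esters in lipid droplets as the starting material of steroid hormones, and the gland lies in fat tissue, whose adipocytes also express lipogenic genes. The gland's own cells were represented by *Cyp11b2*, the aldosterone synthase of the outer cortex, at 1679 to 2096 normalized CPM (CPM, counts scaled to a common library size, here after TMM scaling) in control, 2459 to 2594 in CVS and 2401 to 2519 in CS. *Chgb*, a granule protein of the medulla, was at 1093 to 1233 in control, 1049 to 1194 in CVS and 1500 to 1566 in CS. These were the single cortex marker of 14 and the single medulla marker of 12 that could be identified, and the others, with the liver markers, were not analysed here.

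The start regions of both genes are printed because the pair was high in the same libraries. Each runs 5′ to 3′ from 250 bases before to 50 bases after the RefSeq start site. The build is GRCr8, not the Rnor_6.0 build on which the reads were counted. *Thrsp* lies at chr1:161138915-161139214 and *Scd* at chr1:253231682-253231981, both on the minus strand. Capitals mark the matches to the motifs searched.
Thrsp: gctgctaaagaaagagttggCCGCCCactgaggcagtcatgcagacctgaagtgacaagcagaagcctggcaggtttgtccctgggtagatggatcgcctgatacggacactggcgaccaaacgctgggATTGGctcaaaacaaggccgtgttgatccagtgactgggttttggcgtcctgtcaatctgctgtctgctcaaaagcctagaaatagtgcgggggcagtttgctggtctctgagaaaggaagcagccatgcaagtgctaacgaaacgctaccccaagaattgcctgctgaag
Scd: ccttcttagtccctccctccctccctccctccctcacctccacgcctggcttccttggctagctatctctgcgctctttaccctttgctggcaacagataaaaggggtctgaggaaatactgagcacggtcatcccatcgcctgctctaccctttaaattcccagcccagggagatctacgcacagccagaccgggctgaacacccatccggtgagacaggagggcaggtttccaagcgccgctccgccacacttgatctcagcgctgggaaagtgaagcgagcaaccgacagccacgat
The letters searched, on both strands, were those of the CCAAT box, of the GC box (GGGCGG), of the E-box (CACGTG), of the TATA box (TATAAA) and of the nuclear receptor half-site (AGGTCA). The *Thrsp* window held CCAAT once, 121 bases before the start on the opposite strand, and GGGCGG once, 230 bases before the start, also on the opposite strand. These letters are common: CCAAT stood in 37.5% and GGGCGG in 33.1% of 33469 windows of this length. The other 3 were in neither window, and stood in 6.42% (CACGTG), 14.2% (TATAAA) and 16.2% (AGGTCA) of all windows. The *Scd* window matched none of the 5. By RefSeq gene order, *Thrsp* lies between *Ndufc2* and *Kctd14*, and *Scd* between *Scd4* and *Wnt8b*. Because *Scd4* and other near copies of *Scd* could share its reads, and how the authors' counting treated such reads is not given in the sources used here, the level of *Scd* is less certain than that of *Thrsp*.

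*Thrsp* was lowest in the control libraries and highest in the CS libraries. The control libraries 1 to 3 held 147, 110 and 179 counts, which came to 4.36, 4.52 and 7.66 normalized CPM. CVS libraries 1 and 2 held 729 and 319 counts, or 22.9 and 16.1 normalized CPM. CS libraries 1 and 2 held 777 and 1019 counts, or 24.9 and 40.0 normalized CPM. All 4 stressed libraries thus lay above all 3 control libraries. CS library 2 was the highest, CVS library 2 the lowest of the stressed, and CS library 1 and CVS library 1 lay between them with Poisson intervals that overlapped (23.16 to 26.69 against 21.29 to 24.65). The means were 5.51 ± 1.86 (SD, n = 3) in control, 19.5 ± 4.84 (SD, n = 2) in CVS and 32.4 ± 10.7 (SD, n = 2) in CS. The 95% Poisson intervals of counting reached from 3.68 to 5.12 in control library 1 and from 37.6 to 42.5 in CS library 2, and cover counting error only. They were narrower than the spread between pools: on the log2 scale the SD between libraries was 0.455 in control, 0.361 in CVS and 0.484 in CS, against 0.122, 0.0685 and 0.0486 from counting alone. In bulk RNA of this kind, a change in the number of cells of a type and a change in RNA per cell cannot be told apart.

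*Scd* was also lowest in control, but among the stressed libraries it did not separate CS from CVS. The 3 control libraries held 1236, 689 and 730 counts, or 36.7, 28.3 and 31.3 normalized CPM. The CVS pair held 3098 and 1210 counts, or 97.4 and 61.0 normalized CPM. The CS pair held 2929 and 2410 counts, or 93.8 and 94.6 normalized CPM. CVS library 2 was the lowest of the 4 stressed libraries, and CVS library 1 could not be told from the CS libraries by counting error (95% Poisson interval 94.02 to 100.9 against 90.41 to 97.24 and 90.84 to 98.43). The group means were 32.1 ± 4.23 (SD, n = 3) in control, 79.2 ± 25.8 (SD, n = 2) in CVS and 94.2 ± 0.565 (SD, n = 2) in CS. The CS libraries were closer to each other (SD 0.00869 on the log2 scale) than counting error alone would make them on average (0.0281), and with a pair of pools this closeness is no measure of the spread in CS rats. In CVS the SD of 0.477 was far above the 0.0346 of counting.

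**Figure D1:**
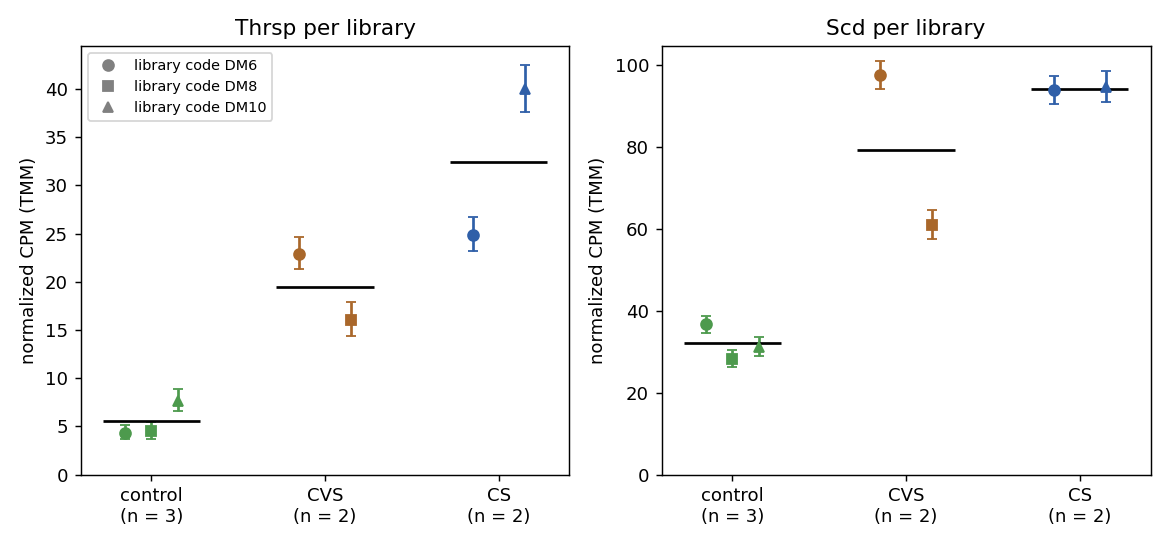
Normalized CPM (y axis, counts scaled to a common library size after TMM) of *Thrsp* and *Scd* in the 3 control, 2 CVS and 2 CS libraries (x axis), each point a library with its 95% Poisson interval of counting, shaped by library code prefix, and each horizontal line the group mean. The stressed libraries all lie above the control libraries, from 16.1 to 40.0 against 4.36 to 7.66 for *Thrsp* and from 61.0 to 97.4 against 28.3 to 36.7 for *Scd*.

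From control to CS, *Thrsp* was 5.92 times as high, a log2 difference of 2.57 (SE 0.28), and *Scd* 2.93 times as high, a log2 difference of 1.55 (SE 0.11). From control to CVS, the differences were 1.84 (SE 0.26; 3.58-fold) for *Thrsp* and 1.31 (SE 0.19; 2.47-fold) for *Scd*. Both stand near the top of all genes tested, as the choice of the pair would have it: *Thrsp* was the 3rd largest log2 difference of 13892 in CS and the 4th in CVS, and *Scd* was the 20th and the 7th. For comparison, 90% of all genes lay between -0.357 and 0.418 in CS and between -0.347 and 0.347 in CVS. The number of genes in which every stressed library exceeded every control library was 521, or 3.75% of those tested, and both members were among them by the way they were chosen.

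**Figure D2:**
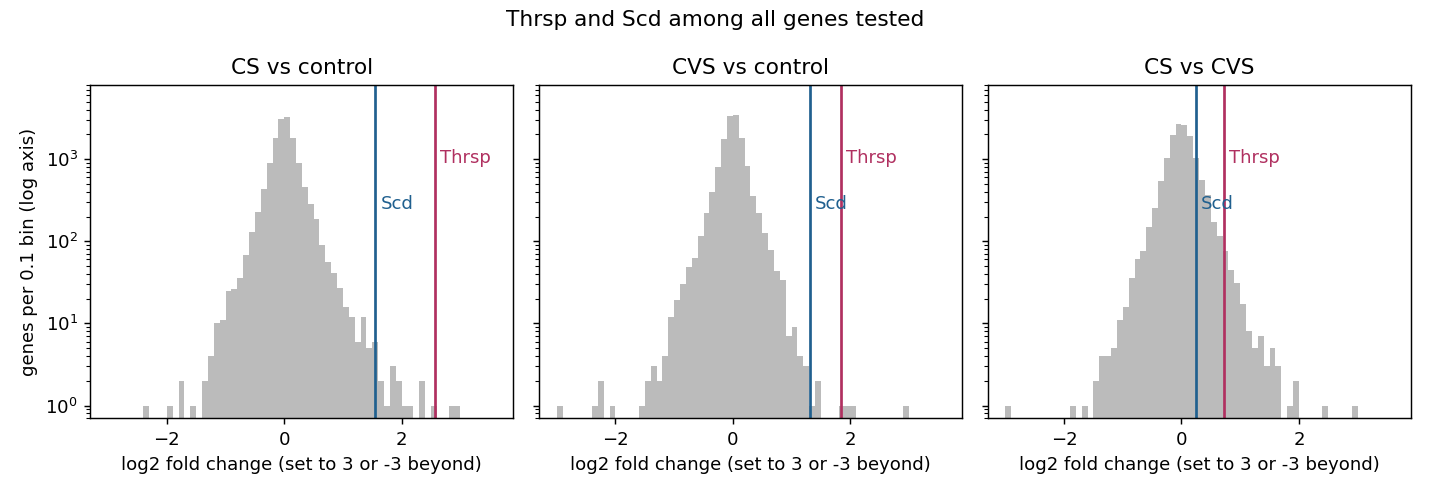
Number of the 13892 genes tested (y axis, log scale) in each bin of log2 difference (x axis, values beyond 3 or -3 set to these) in CS against control, CVS against control and CS against CVS, with *Thrsp* and *Scd* marked by lines. In both comparisons with control the lines lie in the far upper tail, and between the stressed groups they lie nearer to 0 (0.72 and 0.24), with *Thrsp* still in the upper tail.

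Between the stressed groups, the point value was larger for *Thrsp* than for *Scd*, and whether these values differ was not tested. Per 100 reads of *Scd*, CVS libraries 1 and 2 held 23.5 and 26.4 reads of *Thrsp*. CS libraries 1 and 2 held 26.5 and 42.3, so that CS library 1 was close to CVS library 2. *Thrsp* was 1.65 times as high in CS as in CVS, a log2 difference of 0.72 (SE 0.26), which 1.40% of all genes reached or exceeded. *Scd* differed by 0.24 (SE 0.21), which 13.8% of all genes reached or exceeded. By point values both CS libraries were above both CVS libraries for *Thrsp*, as for 20.5% of all genes, although CS library 1 and CVS library 1 cannot be ranked. For *Scd* the value hung on a library: without CVS library 2 it was -0.055 and without CVS library 1 it was 0.62. For *Thrsp* the lowest value was 0.34 and the highest 1.02 when a library was left out.

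The library codes in the labels begin with DM6 for control 1, CVS 1 and CS 1, with DM8 for control 2 and CVS 2, and with DM10 for control 3 and CS 2, and the sources used here do not say what the prefix marks. Within each prefix, each stressed library was above its control library for both genes. This order was fixed in advance, since every stressed library lay above every control library, so it says nothing about the prefix. Within DM6, CVS exceeded control by 2.39 for *Thrsp* and 1.41 for *Scd*, and CS exceeded control by 2.51 and 1.36, all on the log2 scale. Within DM8, the CVS library exceeded its control by 1.83 and 1.11. Within DM10, the CS library exceeded its control by 2.38 and 1.60. CS and CVS could be set against each other within DM6 only, where they differed by 0.12 for *Thrsp* and -0.055 for *Scd*. The larger *Thrsp* difference between CS and CVS over all 4 libraries (0.72) therefore came from the other 2, CS library 2 and CVS library 2, which carry different prefixes and differed by 1.31 for *Thrsp* and 0.63 for *Scd*. This pair does share the replicate number 2. The *Thrsp* difference between CS and CVS was 0.69 with the replicate number as a block and 0.22 with the prefix as a term of the fit, and that of *Scd* was 0.28 and 0.11.

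The coupling of the pair was then examined library by library. Pearson's r of their log2 normalized CPM over the 7 libraries was 0.94, a description with no test, since both were chosen for the same difference between groups and the libraries fall into low and high ones. Set against 100 reads of *Scd*, the control libraries held 11.9, 16.0 and 24.5 reads of *Thrsp*. The CVS libraries held 23.5 and 26.4, and the CS libraries 26.5 and 42.3. The proportion was thus lowest in control libraries 1 and 2 and highest in CS library 2, while control library 3 lay above CVS library 1, so that control and CVS overlapped. Group means were 17.5 ± 6.45 (SD, n = 3), 25.0 ± 2.00 (SD, n = 2) and 34.4 ± 11.1 (SD, n = 2). On the log2 scale the proportion in CVS exceeded control by 0.57 and in CS by 1.00, with the control and CS ranges apart by point values (11.9 to 24.5 against 26.5 to 42.3). Control library 3 (24.5) and CS library 1 (26.5) were close. No interval of counting was computed for the proportion, so these libraries are not ranked. *Thrsp* and *Scd* were thus not in a fixed proportion. By point values from lowest to highest, *Thrsp* ran control 1, control 2, control 3, CVS 2, CVS 1, CS 1 and CS 2, and *Scd* ran control 2, control 3, control 1, CVS 2, CS 1, CS 2 and CVS 1. Neighbors in these orders whose Poisson intervals overlap, such as control libraries 1 and 2 or CVS library 1 and CS library 1 for *Thrsp*, or CVS library 1 and the CS libraries for *Scd*, cannot be ranked.

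**Figure D3:**
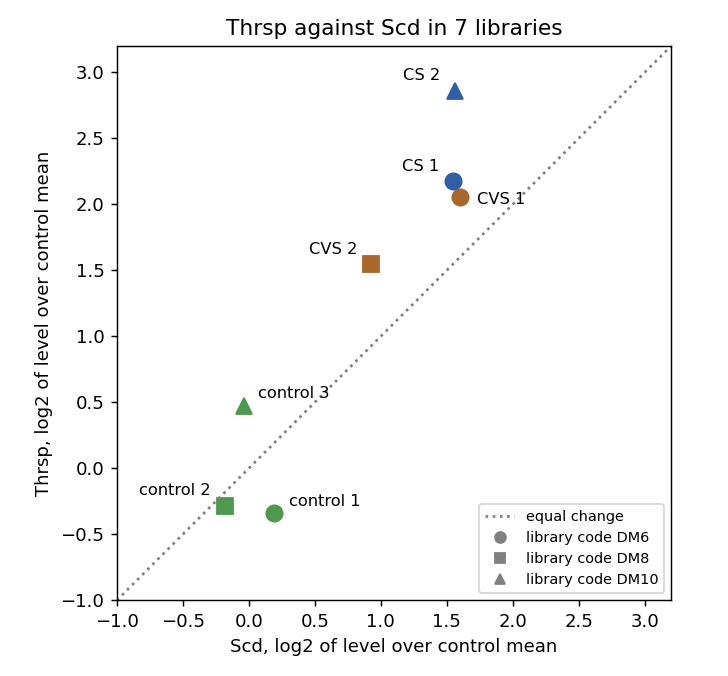
Log2 of the level over the control mean in each of the 7 libraries, *Thrsp* on the y axis and *Scd* on the x axis, with color for the group (green control, brown CVS, blue CS), shape for the library code prefix and a dotted line where both would change equally. The 4 stressed libraries lie above the line, from 1.54 to 2.86 for *Thrsp* and from 0.93 to 1.60 for *Scd*, and the control libraries lie on both sides of it.

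The genes whose pattern over the 7 libraries was most like that of each member were found by Pearson's r over the other 13891 genes tested, as a description. *Scd* was only the 33rd most alike to *Thrsp* and *Thrsp* the 31st most alike to *Scd*, and 96 genes passed r = 0.9 with *Thrsp* and 83 with *Scd*. Of the 5 most like *Thrsp*, *Zfp395* (r = 0.98) is a zinc finger gene and *Car3* (0.97) a carbonic anhydrase abundant in fat and muscle. The other 3 are not named here, and the highest, ENSRNOG00000011648, had r = 0.99. Of the 5 most like *Scd*, those with a symbol were *Nid1* (0.99), a basement membrane glycoprotein, and *Sgms2* (0.98), a sphingomyelin synthase. The other 3 could not be named, and the highest, ENSRNOG00000059810, had r = 0.99. *Fasn* was further down, the 51st most alike to *Scd* (r = 0.92) and the 410th most alike to *Thrsp* (r = 0.78). Among these genes, *Car3* rose in CS by 1.34 on the log2 scale (SE 0.17, adjusted p = 0.0328), *Nid1* by 0.72 (SE 0.082, adjusted p = 0.0311) and *Sgms2* by 0.95 (SE 0.13, adjusted p = 0.0495; quasi-likelihood test of edgeR, p-values adjusted by Benjamini-Hochberg). In CS, 0.209% of all genes were called at an adjusted p under 0.05 (21 rose and 8 fell), in CVS 0.0936% (1 rose and 12 fell) and between CS and CVS 0% (0 genes, with 1020 at an unadjusted p under 0.05). DESeq2 called 1.31%, 0.828% and 0.266% in these comparisons. These genes were selected for likeness to a pattern that separates the groups, and like every gene with a symbol here they come from lists that the study drew from the same libraries, so that their calls are not independent evidence. By edgeR the calls in CS that are named in this text were fragile. Those of *Sgms2*, *Car3*, *Nid1*, *Dgat1*, *Ldah*, *Cd36*, *Adipoq* and *Retn* were all lost without control library 1, 2 or 3 (adjusted p from 0.0576 to 0.226, quasi-likelihood test). Their direction was kept without any 1 of the 5 libraries. DESeq2 on all 5 libraries called each of these genes, with adjusted p-values from 8.85e-12 (*Nid1*) to 0.000203 (*Dgat1*).

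Genes of the surrounding lipid pathways were taken from lists of their members, of which few could be identified, so that each list is incomplete. Of 26 fatty acid synthesis enzymes apart from *Scd*, *Fasn*, the fatty acid synthase that makes the saturated chains *Scd* acts on, was the single one identified. Its normalized CPM was 182, 171 and 151 in control, 242 and 181 in CVS and 222 and 230 in CS, so that the CS libraries lay above control and CVS library 2 lay within the control range. The log2 difference of *Fasn* was 0.43 in CS (SE 0.097, adjusted p = 0.221) and 0.33 in CVS (SE 0.13, adjusted p = 0.732) by edgeR's quasi-likelihood test, well below those of *Thrsp* and *Scd*. With the replicate number as a block, *Fasn* was called in both (adjusted p = 0.0194 and 0.00728), and over all genes that fit called 3.01% in CS and 5.88% in CVS. The blocked fit leaves few residual degrees of freedom, so its p-values, here and below, are a weak measure of the spread between pools. Of 23 regulators of lipogenesis *Ppard*, a nuclear receptor for fatty acids, was identified, at 74.3 to 76.2 normalized CPM in control, 80.01 to 82.23 in CVS and 98.9 to 133 in CS. In CS it differed from control by 0.63 (adjusted p = 0.1498 by edgeR, 0.00236 by DESeq2 and 0.00858 with the block). *Acly*, *Acaca*, *Elovl6*, *Scd2*, *Me1*, *Mid1ip1*, *Srebf1*, *Mlxipl*, *Thra*, *Thrb* and *Klf9*, and all 20 members of the thyroid hormone list, were not analysed here.

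The enzymes of the last step of triglyceride synthesis went apart from each other. *Dgat1*, an acyltransferase that makes triglycerides from diacylglycerol, was at 38.2, 55.0 and 51.4 normalized CPM in control, 45.1 and 52.9 in CVS and 131 and 261 in CS. It rose in CS by 2.02 on the log2 scale (SE 0.27, adjusted p = 0.0409; quasi-likelihood test of edgeR) and differed by 0.025 in CVS (adjusted p = 0.998). *Dgat2*, an unrelated acyltransferase for the same step, was at 73.2, 70.5 and 50.7 in control, 33.9 and 41.4 in CVS and 36.6 and 31.3 in CS. All 4 stressed libraries lay below control for *Dgat2*. The differences of -0.93 in CS (adjusted p = 0.116) and -0.79 in CVS (adjusted p = 0.239) were not called by edgeR. They were called by DESeq2 (adjusted p = 4.8e-05 and 0.00275) and with the replicate block (adjusted p = 0.000208 and 2.1e-29), whose p-values carry the limit given for *Fasn*. *Acsl1*, which activates fatty acids, differed by 0.39 in CS (adjusted p = 0.261, blocked adjusted p = 0.00486). These were the 3 identified members of 23, with 1 called in CS and 0 in CVS, where DESeq2 called 1 and the unadjusted p was under 0.05 for 1. The 3 had a symbol only because the study listed them from these libraries, so nothing is read from these counts. *Ldah*, a hydrolase of lipid droplets on none of the lists and named after its values were seen, rose by 1.37 in CS (SE 0.17, adjusted p = 0.0328) and differed by 0.047 in CVS. *Dgat1* and *Ldah* thus had the CS difference of *Thrsp* and *Scd* but not their CVS difference. The difference between CS and CVS was itself past the threshold for neither by edgeR (adjusted p = 0.546 and 0.346), which called 0 genes in that comparison. It was past it for both by DESeq2 (adjusted p = 0.0307 and 6.96e-10) and with the block (adjusted p = 1.22e-05 each).

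Several genes of fat uptake and fat burning had lower values in the stressed libraries, opposite to *Thrsp* and *Scd*. *Cd36*, a fatty acid transporter of the cell surface, was at 63.0, 71.5 and 84.0 normalized CPM in control, 27.99 and 25.71 in CVS and 34.7 and 35.9 in CS. It fell in CS by 1.04 on the log2 scale (SE 0.13, adjusted p = 0.0319) and in CVS by 1.44 (SE 0.13, adjusted p = 0.0176), and the CVS call was lost without control library 3 (adjusted p = 0.0831) or CVS library 1 (adjusted p = 0.0630; edgeR's quasi-likelihood test). It was the single called member of the 9 identified of 26 in the list of uptake, binding and droplet coats, of which 5 were higher and 4 lower in CS and 3 higher and 6 lower in CVS. *Vldlr*, a receptor for triglyceride-rich lipoproteins, had a difference of -0.57 in CS (adjusted p = 0.0878 by edgeR, 0.000375 by DESeq2, blocked 0.00976). In CVS its difference was -0.49 (adjusted p = 0.153 by edgeR, 0.00506 by DESeq2, blocked 1.56e-06). Of the 9, DESeq2 called 8 in CS and 2 in CVS. With the block, all 9 were called in CS and 8 in CVS. Of 27 genes of fatty acid oxidation 5 were identified, and all 5 had values below 0 in both comparisons, with medians of -0.24 in CS and -0.77 in CVS (0.00528 and 0.00157 over all genes). Members could be identified only where the study had listed them from these libraries. Nothing is therefore read from this difference of medians or from the counts of calls in this list. For these 5, edgeR called 0 in either comparison (3 in CS and 5 in CVS had an unadjusted p under 0.05, and DESeq2 called 0 and 4). Among them *Cpt1b*, which brings fatty acids to the mitochondrion, was at -0.77 in CVS (adjusted p = 0.299). With the replicate block, all 5 were called in CVS and *Pex11a*, a peroxisome gene, in CS (adjusted p = 0.0288). *Scarb1*, the receptor by which steroid-making cells take up cholesterol esters, was the single member of 24 identified for cholesterol, at 2391 to 2879 normalized CPM in control, 2741 and 3719 in CVS and 3876 and 3982 in CS. Its CS difference was 0.58 (adjusted p = 0.116 by edgeR, 4.73e-05 by DESeq2 and 0.000315 with the block).

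**Figure D4:**
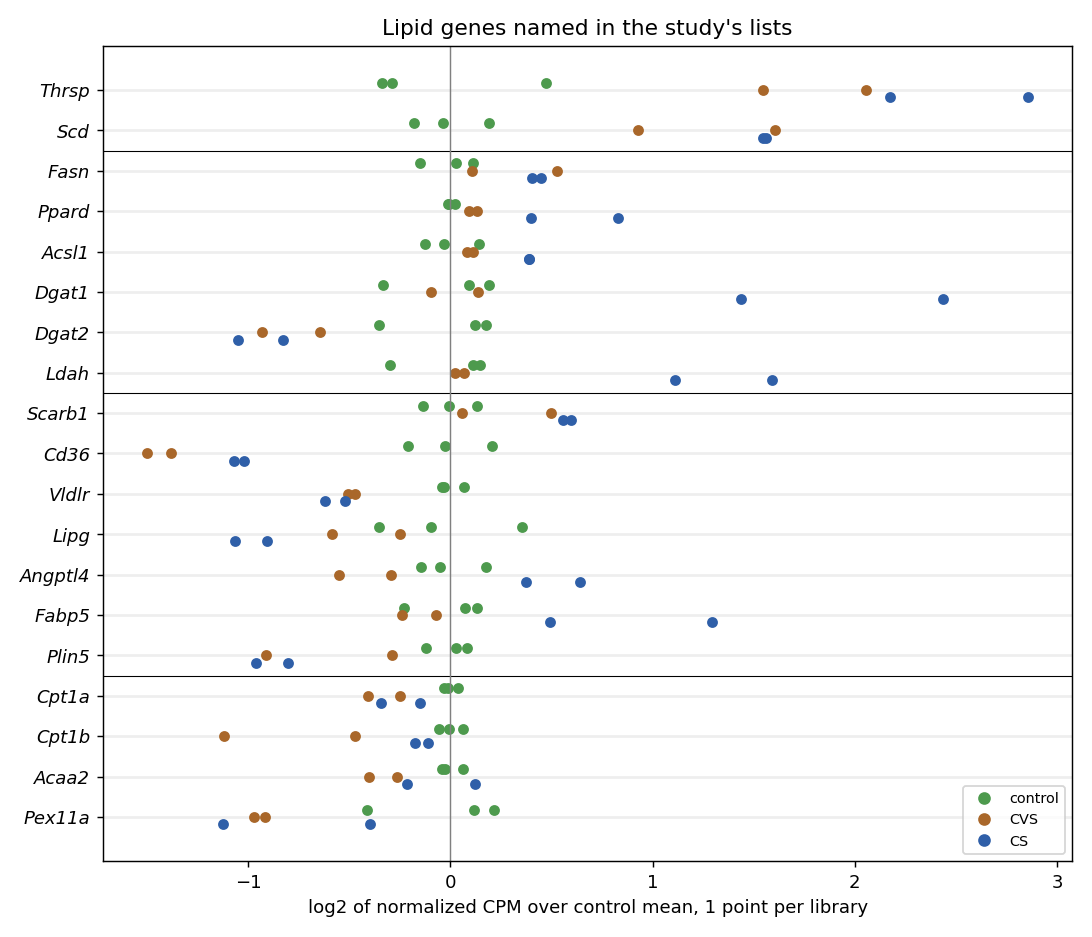
Log2 of normalized CPM over the control mean (x axis) for *Thrsp*, *Scd* and identified genes of lipid metabolism (y axis), each point a library (green control, brown CVS, blue CS), with horizontal lines between groups of genes. *Thrsp* and *Scd* are high in CVS and CS, *Dgat1* is high in the CS libraries (131 and 261 normalized CPM against 38.2 to 55.0 in control), and *Cd36* lies below control in all 4 stressed libraries.

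Markers of fat cells were higher in the same libraries as *Thrsp* and *Scd*. Of 22 white adipocyte markers 9 were identified (40.9%), and 8 of the 9 had higher values in both stressed groups. Their medians were 1.31 in CS and 0.62 in CVS (0.00528 and 0.00157 over all genes). *Adipoq*, the adipocyte hormone adiponectin, was at 9.16, 8.17 and 11.4 normalized CPM in control, 16.8 and 13.4 in CVS and 23.4 and 24.0 in CS. It rose in CS by 1.31 (SE 0.15, adjusted p = 0.0311), as did *Retn*, the adipocyte hormone resistin, by 1.56 (SE 0.21, adjusted p = 0.0412; quasi-likelihood test of edgeR). In CVS they differed by 0.66 (adjusted p = 0.365) and 0.69 (adjusted p = 0.580), and the block called *Adipoq* there (adjusted p = 6.7e-07). *Fabp4*, the fatty acid binding protein of adipocytes, differed by 1.47 in CS (adjusted p = 0.0653 by edgeR, 8.0e-07 by DESeq2, blocked 0.000208). edgeR called 2 of the 9 markers in CS, where all 9 had an unadjusted p under 0.05 and DESeq2 called 9. In CVS edgeR called 0, where 6 had an unadjusted p under 0.05 and DESeq2 called 0. With the block 8 and 6 were called, 1 of them *Gpd1* with a lower value in each. Over all genes edgeR called 0.209% in CS and 0.0936% in CVS, DESeq2 1.31% and 0.828%, and the block 3.01% and 5.88%. The markers had a symbol only through the study's lists from these libraries, so nothing is read from these counts. *Lep*, *Pparg* and *Ucp1* were not analysed here, and of 12 brown adipocyte markers the 2 identified, *Cox8b* and *Cpt1b*, had differences of -0.12 and -0.14 in CS and -0.93 and -0.77 in CVS, called in CVS with the block and by DESeq2.

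The summed level of the adipocyte markers was compared with each member. *Gpd1*, a glycerol phosphate enzyme at 392 to 524 normalized CPM in every library, was the single marker with lower values in the stressed groups and made up most of the sum of all 9, which was 554.0, 553.5 and 581.9 in control, 512.0 and 502.9 in CVS and 510.4 and 511.6 in CS. With *Gpd1* the sum was thus lower in all 4 stressed libraries than in control, and the direction below rests on leaving it out, which was done after its values were seen. The other 8 summed to 45.3, 37.4 and 58.4 normalized CPM in control, 70.5 and 67.5 in CVS and 101.5 and 119.7 in CS. The group means were 47.0 ± 10.6 (SD, n = 3), 69.0 ± 2.14 (SD, n = 2; 1.47 times control) and 110.6 ± 12.9 (SD, n = 2; 2.35 times control), with no overlap between the groups. By marker, all 8 were higher in both CS libraries than in all 3 control libraries, 6 of 8 were so in CVS, and all 8 were higher in CS than in CVS. Over all genes these separations stood at 12.9%, 11.3% and 20.5%, but the markers had a symbol only because the study listed them from these libraries, so nothing is read from their share. Over the 7 libraries, Pearson's r of the 8 markers with *Thrsp* ran from 0.70 (*Cfd*) to 0.96 (*Adipoq*) and with *Scd* from 0.63 (*Cfd*) to 0.92 (*Adipoq*), and that of *Gpd1* was -0.95 with *Thrsp* and -0.94 with *Scd*. Divided by the sum without *Gpd1*, *Thrsp* was 2.43 times control in CVS and 2.49 times in CS. Its library values were 0.0963 to 0.131 in control, 0.238 to 0.325 in CVS and 0.245 to 0.334 in CS, with no overlap with control. *Scd* divided by the sum was 1.63 times control in CVS, where its 0.904 to 1.38 lay above the 0.536 to 0.809 of control, and 1.22 times in CS, where its 0.790 to 0.924 overlapped control. Markers of the gland's own cells were also higher in some of these libraries. *Cyp11b2* lay above control in all 4 stressed libraries, with r = 0.92 with *Thrsp* and 0.84 with *Scd*, and its log2 differences were 0.37 in CS (adjusted p = 0.358 by edgeR, 0.00314 with the block) and 0.41 in CVS (adjusted p = 0.371 by edgeR, 0.0447 by DESeq2, and called with the block). *Chgb* differed by 0.40 in CS (adjusted p = 0.214 by edgeR, 0.00473 by DESeq2, 0.00462 with the block) and by -0.052 in CVS (adjusted p = 0.993). The part of the adipocyte, cortex and medulla markers in the differences of *Thrsp* and *Scd* was not tested.

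**Figure D5:**
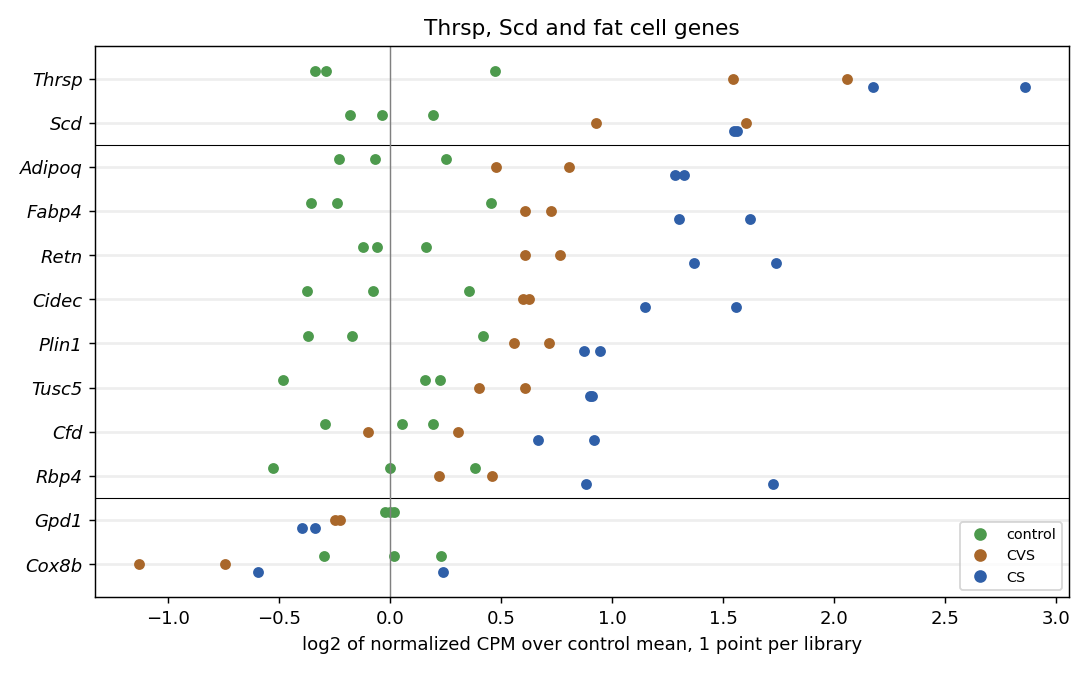
Log2 of normalized CPM over the control mean (x axis) for *Thrsp*, *Scd*, white adipocyte markers and the brown adipocyte marker *Cox8b* (y axis), each point a library (green control, brown CVS, blue CS). All 8 markers from *Adipoq* to *Rbp4* are higher in the CS libraries than in control and CVS, whereas *Scd* is as high in CVS library 1 as in the CS libraries, and *Gpd1* is lower in the stressed libraries.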

How the data were processed

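Adrenal RNA of 7 libraries (3 control, 2 CVS, 2 CS) was analysed, grouped by the labels. The deposited counts are whole-number read counts per Ensembl gene that the authors made with Rsubread and featureCounts on Rnor_6.0 from poly(A) enriched directional libraries; versions, annotation release and strand setting are not given in the sources used here, so overlapping or near-identical genes may mix. Totals were 20095746 to 32242123 counts per library, and 9704 of 32754 genes had 0 counts everywhere. The tests took the 13892 genes that reached 10 counts in each library.

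Groups were compared by edgeR 4.0.16 under R 4.3.3 with limma 3.58.1 (TMM, estimateDisp, glmQLFit and glmQLFTest at default settings) on the libraries compared only, with Benjamini-Hochberg adjustment over all genes tested and calls at an adjusted p under 0.05. Normalized CPM was TMM-scaled over all libraries, and log2 values had 0.5 counts added. DESeq2 1.42.0 was an alternative; others were library scalings, no filter, a replicate block, the library code prefix and leaving out each library. Python 3.11.15 with numpy 2.4.6, pandas 2.3.3, scipy 1.17.1 and matplotlib 3.10.9 gave the other values. Poisson intervals (95%) cover counting error only. The study describes the pools of a group as independent replicates, and p-values of the fits without a block measure the spread between these pools.

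Deviations from the group means correlated at 0.213 to 0.466 between same-numbered libraries in all 6 pairs, which in groups of 2 are mirror images. Libraries of different groups with the same code prefix correlated at 0.194 to 0.466, so these values do not choose between number and prefix. Taking the number as the block was a choice, and blocked values are given where they change a call. That block leaves few residual degrees of freedom, and control library 3 has no partner in it. Blocked p-values, the very small ones above all, are thus a weak measure of the spread between pools.

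*Thrsp*, *Scd* and all gene lists were chosen with earlier results of these data known. Named genes were the members, the list genes that were called or stood on a short fixed list of lipid and tissue genes, the 5 most like each member by Pearson's r, and neighbors. Symbols came from the 276 genes of the study's supplementary lists, which were selected on these libraries; other genes were left without a name. Promoter sequences are RefSeq's for GRCr8. Some genes are not reported here.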

Additional observations from a re-analysis of the deposited data

How the results depend on the processing

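Over 7 settings (scalings, filter, test, block, prefix) and 4 or 5 libraries left out singly, the comparisons of *Thrsp* and *Scd* with control kept their direction in all 12 values each. Every stressed library lay above every control library for both genes, by which they were chosen. Leaving out a library could therefore not turn the direction, and its being kept is no measure of robustness. *Thrsp* ranged over 2.37 to 2.82 in CS and 1.83 to 2.15 in CVS, and with a library left out over 2.18 to 2.87 and 1.55 to 2.14. *Scd* ranged over 1.42 to 1.55 and 1.27 to 1.32, and with a library left out over 1.47 to 1.66 and 0.93 to 1.60. Between CS and CVS, *Thrsp* was 0.22 with the code prefix (0.34 to 1.02 with a library left out), and *Scd* turned to -0.055 without CVS library 2 (to 0.62 without CVS library 1); the cause was not tested. The number of called genes in CS (29) was 182 by DESeq2, 232 without the filter, 418 with the replicate block, 580 with the prefix and 1 to 83 with a library left out, the most without CS library 1. In CVS (13) it was 115, 151, 817 and 257 in that order, 7 with DESeq2's size factors, 8 with library totals and 0 to 16 with a library left out. Between CS and CVS (0 by edgeR) it was 37, 295, 397 and 111, and 0 to 39. *Fasn* was called in CS by DESeq2, without the filter, with the block and with the prefix (1 gene each) and in CVS with the block (1). White adipocyte markers called in CS (2) were 9 by DESeq2, 8 without the filter, 8 with the block, 9 with the prefix and 0 to 4 with a library left out. In CVS (0) they were 2 without the filter, 6 with the block and 4 with the prefix, and between CS and CVS (0) they were 1 by DESeq2, 6 without the filter and 4 with the block. Of all alternative values computed, 127 stayed within their limits, 47 moved and 1 reversed. The limit was 1 SD between libraries for log2 differences and a fixed ratio for counts of called genes. Many of the 127 were counts of 0 that stayed at 0, so this tally is no measure of robustness. The replicate block changed the calls beside which its value or count stands and no other call printed. Depth limited *Thrsp* most in control (110 to 179 counts), where counting error was still below the spread between pools.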

Other observations

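Genes with the pattern most opposed to *Thrsp* and *Scd* over the 7 libraries were looked up after their values were seen. Among genes with a symbol, *Smarcd2*, a subunit of a chromatin remodeling complex, was the most opposed to *Thrsp* (r = -0.99), and *Dgat2* was the 3rd of all genes (r = -0.98). *Ghr*, the growth hormone receptor, was the most opposed to *Scd* (r = -0.98), followed by *Cxcl14*, a chemokine (r = -0.98). By edgeR's quasi-likelihood test their differences in CS were -0.32 for *Smarcd2* (adjusted p = 0.266), -0.34 for *Ghr* (adjusted p = 0.247) and -0.56 for *Cxcl14* (adjusted p = 0.0653), none past the threshold. All were called by DESeq2 (adjusted p = 0.0363, 0.0371 and 6.67e-05) and with the replicate block (adjusted p = 0.0170, 0.0182 and 0.00296). These genes were picked for a pattern that separates the groups, so their calls are not independent evidence.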
